A study of Mus musculus with 6 samples.

Results

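The chemokines described here are the CXC family members Cxcl1, Cxcl2, Cxcl5, Cxcl13, Cxcl14, Cxcl16, Pf4 and Ppbp and the CX3C family member Cx3cl1. They were listed by name as CXC and CX3C chemokines other than the interferon-induced ligands of the receptor CXCR3, and were found by matching gene identifiers to mouse annotation (GRCm38, GENCODE M21). All 9 were among the 49328 genes of the deposited table, and 7 of the 9 were high enough to be tested. The 6 RNA libraries came from cultured bone marrow mesenchymal stromal cells (MSCs, the adherent stromal cells of marrow) from CB6F1 mice, an F1 hybrid strain. The mice behind all 6 had aGVHD, acute graft-versus-host disease, the attack of transplanted immune cells on their recipient. After isolation by digestion of whole marrow and growth in high-glucose DMEM with serum, the cells of 3 libraries received a compound labelled only R at 0.5 um (unit as labelled) and those of the other 3 the vehicle DMSO. No culture from healthy mice is compared here, and the sources used here do not give the nature of R, the treatment time or the age of the animals. Nor do the labels say that replicates were separate animals or cultures, and p-values reflect only the spread among these libraries, which may be technical.

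Chemokines are small secreted proteins that direct the migration of leukocytes through G protein-coupled receptors. CXC chemokines that carry a glutamate-leucine-arginine (ELR) motif just before their cysteine pair bind CXCR2 and recruit neutrophils, whereas those without it act on other cells. In stromal cells and macrophages the ELR chemokines are classic targets of NF-kappaB, induced by interleukin 1, interleukin 17, TNF and Toll-like receptor signals. Cxcl16 and Cx3cl1 are unusual in being made as membrane proteins that can be shed by proteases of the ADAM family.

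The coding sequence at the cysteine pair is shown for each gene because it separates the ELR chemokines from the rest. Each stretch is read from the GENCODE M21 transcript, 5′ to 3′, with its GRCm38 position on the strand of the gene. Capitals mark the cysteine codons and, where present, the codons for glutamate, leucine and arginine.

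Cxcl1, chr5:90891481-90891516: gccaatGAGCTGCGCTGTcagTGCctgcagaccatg
Cxcl2, chr5:90904127-90904162: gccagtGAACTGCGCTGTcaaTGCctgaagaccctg
Cxcl5, chr5:90759712-90759747: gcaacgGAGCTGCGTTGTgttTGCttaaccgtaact
Ppbp, chr5:90769070-90769105: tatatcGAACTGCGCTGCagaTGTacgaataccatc
Pf4, chr5:90772929-90772964: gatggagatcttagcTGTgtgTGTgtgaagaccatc
Cxcl13, chr5:95958649-95958684: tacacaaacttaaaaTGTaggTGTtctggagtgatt
Cxcl14, chr13:56295903-56296116: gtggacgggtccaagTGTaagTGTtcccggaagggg
Cxcl16, chr11:70459115-70459150: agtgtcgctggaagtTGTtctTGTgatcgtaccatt
Cx3cl1, chr8:94778036-94778077: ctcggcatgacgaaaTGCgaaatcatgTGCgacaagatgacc

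Cxcl1, Cxcl2, Cxcl5 and Ppbp carry the ELR codons, and the other 5 do not. In the CXC genes 1 codon lies between the cysteine codons, and in Cx3cl1 3 do. The stretch lies in exon 2 of the transcript in 8 genes and runs across the junction of exons 1 and 2 in Cxcl14, whose position holds the intron. The ELR genes and Pf4 are neighbours on chromosome 5, all on the plus strand: Cxcl5 (90759360 to 90761624), Ppbp (90768518 to 90770063), Pf4 (90772435 to 90773383), Cxcl1 (90891241 to 90893115) and Cxcl2 (90903871 to 90905938). Together these 5 span 146.6 kb. Cxcl13 lies further along the same chromosome (95956951 to 95961068). Cxcl14 is on chromosome 13 (56288643 to 56296551, minus strand), Cxcl16 on chromosome 11 (70453983 to 70459984, minus strand) and Cx3cl1 on chromosome 8 (94772009 to 94782427, plus strand).

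The promoters of Cxcl1 and Cxcl2 are shown because these neighbouring paralogues hold the same kappaB run, the kind of sequence NF-kappaB binds. Each stretch runs from 150 to 31 bases before the RefSeq transcription start on GRCm38.p6 (plus strand), with the kappaB run in capitals.

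Cxcl1, chr5:90891095-90891214: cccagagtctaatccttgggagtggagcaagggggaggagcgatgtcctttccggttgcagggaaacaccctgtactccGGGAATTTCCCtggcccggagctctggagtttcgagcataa
Cxcl2, chr5:90903749-90903868: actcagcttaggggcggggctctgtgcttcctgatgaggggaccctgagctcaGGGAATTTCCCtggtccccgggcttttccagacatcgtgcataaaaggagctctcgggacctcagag

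RefSeq promoters were matched for 7 of the 9 genes, with Cxcl5 and Cxcl16 not among them. The run GGGAATTTCCC lay 71 to 61 bases before the start of Cxcl1 and 97 to 87 bases before that of Cxcl2, and it holds overlapping matches to the kappaB consensus on both strands. A kappaB consensus match was present in 3.9% of 32851 mouse promoters over the same 250 bases before the start, counting both strands, and this exact run in 0.0426%. Of the other 5 promoters none held the kappaB consensus. For Cx3cl1 the window searched (94771930 to 94772179) lies mostly inside the GENCODE gene, which starts at 94772009, so little sequence before that start was searched. Matches to the STAT-binding GAS motif TTCNNNGAA (7.02% of promoters) and to the interferon response core, GAAA and GAAA parted by 2 bases (2.98% of promoters), were searched on both strands and found in that of Cxcl14 alone among the 7. Such matches are a description of the letters only.

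The libraries held an estimated 17060000 to 21760000 reads each, and 11862 genes had 1 FPKM or more (a level scaled to transcript length and library size) in 3 or more of the 6. Changes are differences in the mean of log2(FPKM + 1), R minus vehicle, tested in limma across all 11862 genes with Benjamini-Hochberg adjustment and a threshold of 0.05. Macrophage markers were abundant in these MSC cultures: Lyz2, encoding macrophage lysozyme, stood at 8707 to 12890 FPKM. Among stromal markers Col1a1 (collagen I) and Pdgfrb were present at 127 to 588 and 27.9 to 63.5 FPKM, while the marrow stromal receptor Lepr was at 0.0333 to 0.22 FPKM. All 12 listed macrophage markers were tested. Of these 4 fell and 0 rose, beside 4.43% of all tested genes that fell and 2.39% that rose. Their summed level without Lyz2 was 4633 to 6557 FPKM in vehicle and 3420 to 4209 FPKM in R. Summed markers of neutrophils, with most of the sum from Csf3r, were at 9.48 to 16.6 FPKM in vehicle and 6.99 to 10.4 FPKM in R. Those of T and NK cells were at 5.65 to 8.73 against 2.19 to 6.38 FPKM, and those of endothelium at 1.29 to 1.92 against 2.32 to 5.48 FPKM. The endothelial sum mixed directions, since Kdr had the lower mean in R (0.406 FPKM, against 0.604 FPKM in vehicle). The T and NK sum mixed directions too. In 4 T and NK markers (Cd8a, Trbc2, Nkg7 and Prf1) each R library lay below each vehicle library, beside 15.5% of all tested genes. Cd8a and Prf1 were under the filter and so not among the tested genes. Nkg7 was called (log2 change -1.47, limma adjusted p = 0.00789), though it reached the filter only through its vehicle libraries. Cd4 lay higher in each R library, as did 13.9% of all tested genes, and gave 4.25 of the 6.38 FPKM in R replicate 1. Which cells made each chemokine is not shown by bulk RNA, in which fewer cells of a type and less RNA per cell cannot be told apart.

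Among the 9 chemokines, Cxcl1 fell in R, and the neutrophil chemokine Cxcl5, present in vehicle and close to 0 in each R library, just missed the threshold. The abundant members Cxcl2, Cxcl14, Cxcl16 and Pf4 did not pass, nor did the low Cx3cl1. Of the 7 tested members 1 fell, 0 rose and 6 did not pass, beside 6.82% of all tested genes that passed, 4.43% that fell and 2.39% that rose. The log2 change was negative in 6 of the 7 and positive in Cxcl14, with a median of -0.57, beside -0.0037 over all tested genes. An unadjusted p under 0.05 was reached by 3 of the 7, namely Cxcl1, Cxcl2 and Cxcl5, beside 24% of all tested genes. In these 3 each R library lay below each vehicle library, as it did in 15.5% of all tested genes, though Cxcl5 reached the filter only through its vehicle libraries. The untested Cxcl13 was apart too, but on 0 reads in each R library against 2, 1 and 2 reads in vehicle.

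**Figure D1:**
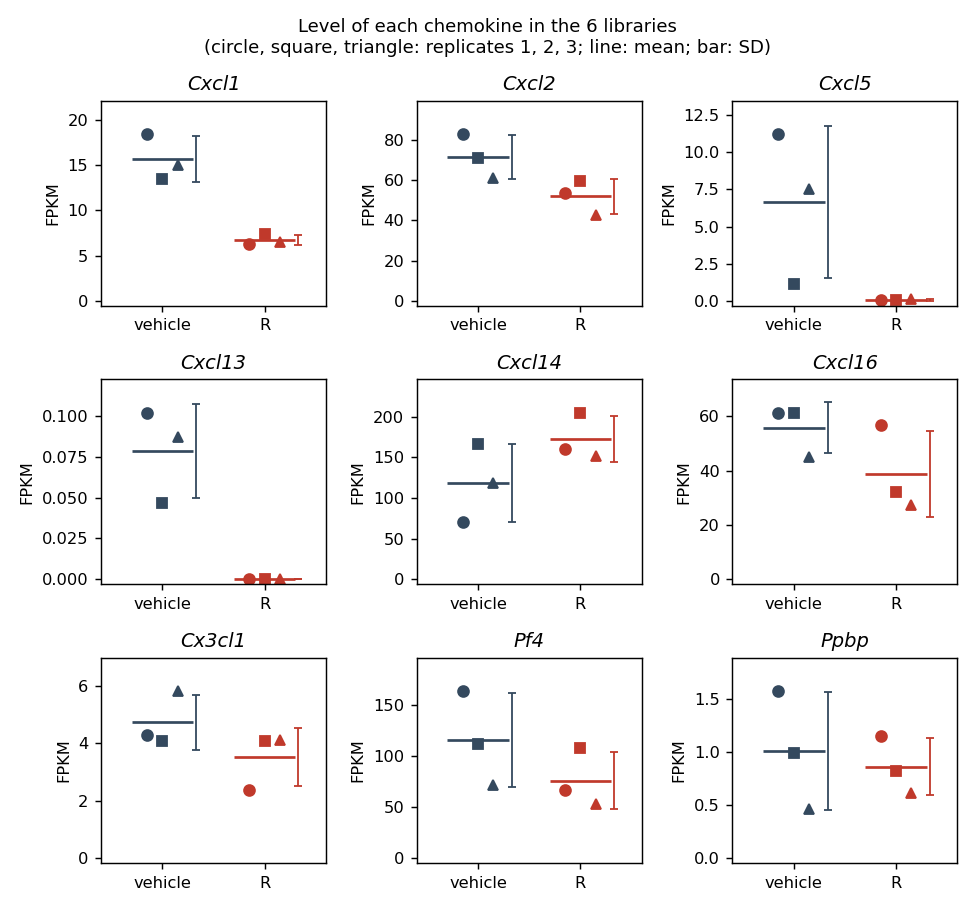
Level of each of the 9 chemokines (FPKM, linear axis for each panel) in the 3 vehicle and 3 R libraries, with the group mean as a line and the SD as a bar. The groups are apart for Cxcl1, Cxcl2, Cxcl5 and Cxcl13 and overlap for the other 5; the highest Cxcl13 value is only 0.102 FPKM.

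Cxcl1, known as KC and a main neutrophil attractant of the mouse, had 18.4, 13.5 and 15 FPKM in vehicle replicates 1, 2 and 3. In R replicates 1, 2 and 3 it had 6.28, 7.35 and 6.46 FPKM. The R libraries sat close together and all lay below the lowest vehicle library. The mean went from 15.6 ± 2.53 to 6.7 ± 0.576 FPKM (SD, n = 3), a ratio of 0.429, with a log2 change of -1.1 (SE 0.13, limma adjusted p = 0.00382). These levels rest on 219 to 256 reads per R library and 473 to 589 per vehicle library. Its call held under all 14 alternatives tried, with adjusted p from 0.00242 to 0.0231. The macrophage markers that fell (Fcgr1, Itgam, Aif1 and Msr1) moved the same way. The other 8 did not pass, with log2 changes from -0.90 (C1qa) to 0.11 (Cd68). In 8 of all 12 each R library lay below each vehicle library, beside 15.5% of all tested genes. The part of macrophage number in the Cxcl1 values was not tested.

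Cxcl2, or MIP-2, which shares the receptor CXCR2 with Cxcl1, was the more abundant of the pair. It had 83.0, 70.9 and 61.1 FPKM in vehicle replicates 1, 2 and 3, and 53.5, 59.7 and 42.8 FPKM in the R libraries in the same order. Each R library lay below each vehicle library, though R replicate 2 and vehicle replicate 3 were nearly level. The log2 change was -0.46 (95% interval -0.83 to -0.09, unadjusted p = 0.0217), and it did not pass after adjustment in limma (adjusted p = 0.132).

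On the per-length FPKM scale Cxcl1 was 22.2%, 19.0% and 24.6% of Cxcl2 in the vehicle libraries and 11.7%, 12.3% and 15.1% in the R libraries. The share was thus lower in every R library than in every vehicle library, a difference of -0.75 in the log2 ratio. An exact two-sided permutation test over the 6 libraries gave p = 0.1, the smallest value that 3 against 3 can give, so this difference cannot pass 0.05. Transcripts of Cxcl1 and Cxcl2 share at most 23 identical bases in a row, but Cxcl2 shares a run of 157 bases with Cxcl3, another CXCR2 ligand of the cluster. The Cxcl2 values are uncertain to the extent that reads from this run were divided between both genes, since the sources used here do not say how they were counted. Cxcl3 was listed at 0.0789 to 0.643 FPKM.

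Cxcl5, or LIX, an ELR chemokine made mainly by stromal and epithelial cells, showed the most extreme contrast of the 9 in level. It had 11.2, 1.12 and 7.56 FPKM in vehicle replicates 1, 2 and 3, which stand for 357, 39 and 282 reads. In R replicates 1, 2 and 3 it had 0.0247, 0.0597 and 0.119 FPKM, or 1, 2 and 4 reads. The vehicle libraries disagreed widely among themselves, with replicate 2 far below the others, yet all lay above the R libraries. Summed over libraries there were 678 reads in vehicle and 7 in R, a depth-corrected ratio of 100.3 (exact 95% interval 48.4 to 250.5, which covers counting error only). The log2 change was -2.5 (SE 0.59, 95% interval -3.88 to -1.13), and limma's adjusted p of 0.0501 just missed the threshold. Without vehicle replicate 2 the log2 change was -3.26 and the adjusted p 0.00114, and without any other library the adjusted p was 0.102 to 0.135. With a pseudocount of 0.1 the log2 change was -4.86 (adjusted p = 0.017), and with no filter on low values the adjusted p was 0.146. Cxcl5 reached the filter only through its 3 vehicle libraries, so its presence among the tested genes is itself tied to the difference.

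Ppbp, the precursor of the platelet chemokine NAP-2 and the last ELR member, was near the limit of the data. It had 1.57, 0.986 and 0.461 FPKM in vehicle replicates 1, 2 and 3 and 1.15, 0.821 and 0.613 FPKM in the R libraries, on 10 to 29 reads per library. The R values all lay within the vehicle range, and the gene did not reach the filter. An exact two-sided permutation test gave p = 0.9, and the summed reads were 59 in vehicle and 55 in R, a ratio of 1.11 (exact 95% interval 0.756 to 1.64, counting error only).

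Pf4, platelet factor 4, is stored in platelet granules, is also made by macrophages and lies beside Ppbp on the chromosome. It had 163, 111 and 71.7 FPKM in vehicle replicates 1, 2 and 3, and 67, 107 and 53 FPKM in R replicates 1, 2 and 3. The groups overlapped, since R replicate 2 lay above vehicle replicate 3. The mean went from 115.5 ± 46 to 75.7 ± 28.2 FPKM (SD, n = 3), with a log2 change of -0.59 (95% interval -1.4 to 0.22, limma adjusted p = 0.354). The interval thus holds falls of more than a log2 unit as well as no change. Markers of megakaryocytes and platelets were low beside it: the 9 of 10 listed that were in the table summed to 4.08 to 4.96 FPKM in vehicle and 4.96 to 6.74 FPKM in R. The lineage-defining Itga2b was at 0.152 to 0.352 FPKM and Gp9 at 0 to 0.133 FPKM. Highest of the list was Treml1, at 2.322 to 4.065 FPKM over all libraries. Vwf was at 0.595 to 0.775 FPKM in vehicle and 0.931 to 1.63 FPKM in R.

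Cxcl14, a non-ELR chemokine of epithelia and stroma that attracts monocytes and dendritic cells, was the most abundant of the 9 by mean level in both groups. It had 70.8, 167 and 118 FPKM in vehicle replicates 1, 2 and 3 and 161, 205 and 152 FPKM in R replicates 1, 2 and 3. The groups overlapped through vehicle replicate 2, which lay above R replicates 1 and 3. The log2 change was 0.61 (SE 0.29, 95% interval -0.08 to 1.3, limma adjusted p = 0.263). By mean FPKM it ranked 382 among the tested genes in vehicle and 231 in R. Leaving out a library moved its change between 0.28 and 0.9, the low end without vehicle replicate 1, and none of these fits passed. The summed level of the 11 listed stromal markers, most of it from collagen genes, was 339, 699 and 619 FPKM in vehicle replicates 1, 2 and 3. In the R libraries the sum was 871, 628 and 1027 FPKM, where the order differed from that of Cxcl14. In vehicle the order was the same, but the list holds the chemokine Cxcl12, at 34.8, 168 and 43 FPKM there. Col1a1 had another order, with 127, 252 and 263 FPKM in vehicle replicates 1, 2 and 3. Without the collagen genes, but with Cxcl12, the sum was 134 to 266 FPKM in vehicle and 113 to 184 FPKM in R. The part of stromal cell number in the Cxcl14 values was not tested.

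**Figure D2:**
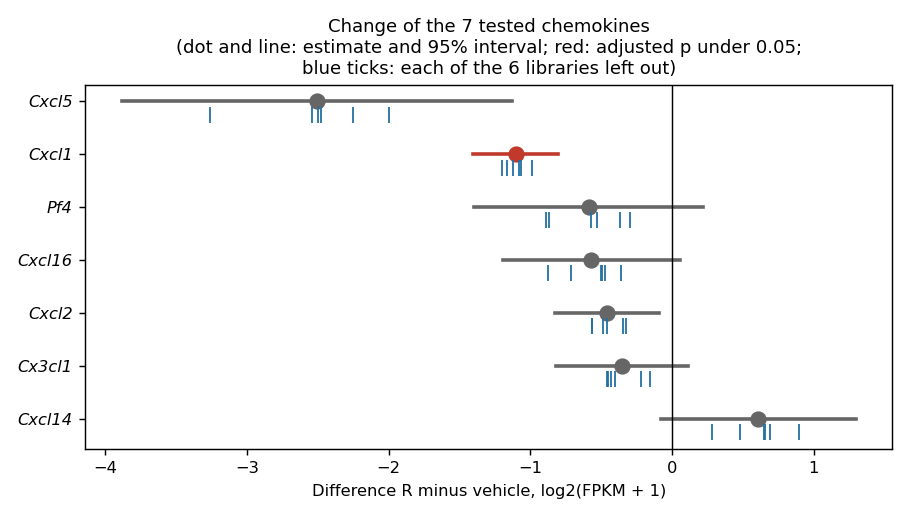
Difference in log2(FPKM + 1), R minus vehicle, of the 7 tested chemokines with 95% intervals, and ticks for the same estimate with each of the 6 libraries left out. Cxcl1 is the member called; the estimate of Cxcl5 moves from -2 to -3.26, and those of the other 5 keep their sign.

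Cxcl16 is a transmembrane chemokine and scavenger receptor of macrophages whose soluble form binds CXCR6 on T cells. It had 61.1, 61.4 and 45 FPKM in vehicle replicates 1, 2 and 3 and 56.9, 32.3 and 27.3 FPKM in R replicates 1, 2 and 3. R replicate 1 lay among the vehicle libraries, and the other 2 R libraries lay below all of them. The log2 change was -0.57 (95% interval -1.19 to 0.06, limma adjusted p = 0.251). Without R replicate 1 it was -0.87 with an adjusted p of 0.0497, and it passed in no other fit. R replicate 1 also had the highest level of Ctss, the lysosomal protease cathepsin S, among the R libraries (1246 FPKM, beside 691 and 733). The summed macrophage markers, mostly Lyz2, were at 15000 FPKM there, beside 13060 and 12130, but without Lyz2 R replicates 1 and 2 were level (4201 and 4209 FPKM, beside 3420). The part of macrophage number in the Cxcl16 values was not tested. The 5′ end of Cxcl16 overlaps the opposite-strand gene Zmynd15 by 552 bases, and without strand their reads cannot be told apart; Zmynd15 was listed at 1.64 to 3.79 FPKM.

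Cx3cl1, or fractalkine, a membrane-bound chemokine that binds CX3CR1 on monocytes and macrophages, was low. It had 4.28, 4.07 and 5.81 FPKM in vehicle replicates 1, 2 and 3 and 2.36, 4.09 and 4.13 FPKM in R replicates 1, 2 and 3. The groups overlapped, with R replicate 1 below the other 5 libraries. The log2 change was -0.35 (95% interval -0.82 to 0.11, limma adjusted p = 0.334).

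Cxcl13, which draws B cells to follicles through CXCR5, was barely detected. It was listed at 0 in each R library and at 0.102, 0.0464 and 0.0869 FPKM in vehicle replicates 1, 2 and 3, which stand for 2, 1 and 2 reads. No fold is given, since each library held fewer than 3 reads, and an exact two-sided permutation test gave p = 0.1, the smallest possible. Markers of follicular dendritic and B cells were close to absent as well, with the 4 in the table summing to 0.0273 to 0.208 FPKM in any library.

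In vehicle, Cxcl14 (mean 118.5 FPKM) and Pf4 (115.5 FPKM) stood highest and their libraries overlapped. They were followed by Cxcl2 (71.7 FPKM), which overlapped with Pf4, and Cxcl16 (55.8 FPKM), whose highest library just reached the lowest of Cxcl2, and then by Cxcl1 (15.6 FPKM). Cxcl5 and Cx3cl1 overlapped at means of 6.64 and 4.72 FPKM. In R, Cxcl14 (172.5 FPKM) stood apart, with its lowest library above the highest of Pf4 (75.7 FPKM). The ranges of Pf4 and Cxcl2 (52 FPKM) overlapped there, as did those of Cxcl2 and Cxcl16 (38.9 FPKM). Cxcl1 (6.7 FPKM), Cx3cl1 (3.53 FPKM) and Ppbp (0.86 FPKM) followed without overlap, and Cxcl5 stood below Ppbp at 0.0677 FPKM.

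**Figure D3:**
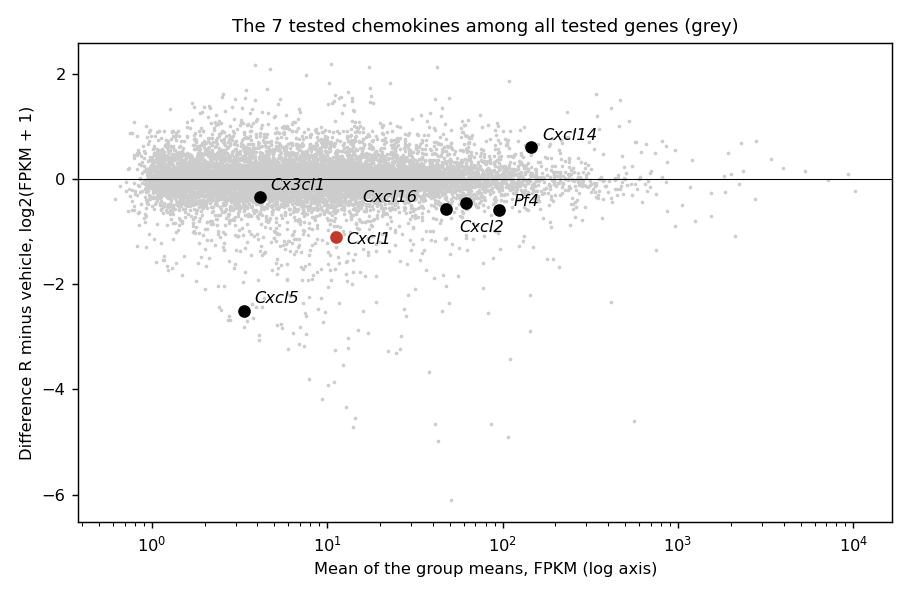
Difference in log2(FPKM + 1), R minus vehicle, against the mean of the group means (FPKM, log axis) for all 11862 tested genes in grey, with the 7 tested chemokines named. Cxcl1 and Cxcl5 lie below the main band, at -1.1 and -2.5, and Cxcl14 lies above 0 among abundant genes.

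Profiles across the 6 libraries were compared as the root-mean-square distance between log2(FPKM + 1) values centred on each gene's mean. Nearest to Cxcl1 were Gpr84 (distance 0.053), a receptor for medium-chain fatty acids on activated macrophages, Lgals9 (0.076), encoding galectin-9, and Clec4e (0.078), the macrophage lectin Mincle. Nearest to Cxcl2 were Blvrb, Fcer1g and Lrrc25 (0.063 to 0.07), and nearest to Cxcl16 were the lectin receptor Clec7a, Ctss and AU020206 (0.123 to 0.137). Cxcl14 was closest to Ppic, Tgfb1i1 and Bok (0.138 to 0.159), Cx3cl1 to Selenoh, Emilin1 and Loxl1 (0.12 to 0.127) and Pf4 to Guca1a, Gmfg and Lst1 (0.184 to 0.224). Cxcl5 had no close match: its nearest were Gapdh (0.533), a gene with many near-identical copies whose listed values of a few FPKM are uncertain, and the chemokines Ccl6 and Ccl12 (0.574 and 0.621). These distances over 6 libraries describe likeness only.

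The other CXC chemokines included the CXCR3 ligands Cxcl9 and Cxcl10, which both fell (log2 change -4.72 and -3.91, limma adjusted p = 5.54e-05 for both). Cxcl9 had 28, 35.2 and 20.7 FPKM in the vehicle libraries and at most 0.148 FPKM in R, and Cxcl10 had 17.1, 21.1 and 20.9 FPKM and at most 0.543 FPKM. Like Cxcl5, both reached the filter only through the vehicle libraries. Of the 3 tested in this list of 7, 2 fell and 0 rose, beside 4.43% and 2.39% of all tested genes. Cxcl12, the niche factor that retains haematopoietic cells in marrow, had 34.8, 168 and 43 FPKM in vehicle replicates 1, 2 and 3 and 16.6, 14.1 and 64.1 FPKM in R replicates 1, 2 and 3. Its groups overlapped widely and it did not pass (log2 change -1.31, adjusted p = 0.326).

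Receptors for these chemokines showed no call: of 8 listed 3 were tested, with 0 lower and 0 higher, beside 4.43% and 2.39% of all tested genes. Cxcr4 had 76.8, 40.8 and 42.5 FPKM in R replicates 1, 2 and 3 and 32, 31.6 and 32 FPKM in the vehicle libraries. Every R library was above every vehicle library, as in 13.9% of all tested genes. The Cxcr4 log2 change of 0.66 did not pass (limma adjusted p = 0.132). Cx3cr1, the receptor of Cx3cl1 on macrophages, had 16.7, 6.22 and 7.17 FPKM in R and 3.42, 6.95 and 3.73 FPKM in vehicle (log2 change 0.88, adjusted p = 0.202). Its groups overlapped, as did those of Cxcr6, the receptor of Cxcl16, at 0.819 to 1.52 FPKM over all libraries (adjusted p = 0.709). The ELR receptor Cxcr2, named after its values were seen, was listed at 0 in all libraries but vehicle replicate 1, and of the 8 neutrophil markers measured, Mpo, Elane and S100a9 were at 0 in all 6. Others of that list were detected in each library, among them Csf3r at 5.27 to 13 FPKM and S100a8 at 0.558 to 1.33 FPKM.

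Of 6 shedding proteases and their regulators 1 fell and 0 rose, beside 4.43% and 2.39% of all tested genes. Their median log2 change was -0.33, beside -0.0037 over all tested genes. The one that fell was Rhbdf2, or iRhom2, which carries ADAM17 to the surface of myeloid cells, from 16.7 ± 2.68 to 10.1 ± 0.769 FPKM (SD, n = 3; log2 change -0.66, limma adjusted p = 0.0267). Only leaving out vehicle replicate 3 kept its call; without any one of the other 5 libraries the adjusted p was up to 0.082. Adam17, the main inducible sheddase of Cx3cl1, had a log2 change of -0.43 (adjusted p = 0.0895), and Adam10, which sheds Cx3cl1 and Cxcl16 constitutively, one of -0.23 (adjusted p = 0.342). Ctss stood at -0.49 (adjusted p = 0.264). Rhbdf1 went the other way, with 4.93, 8.47 and 7.32 FPKM in vehicle and 11.7, 12.7 and 10.3 FPKM in R replicates 1, 2 and 3. Its groups were apart, but it did not pass (log2 change 0.69, limma adjusted p = 0.0664). Timp3, an inhibitor of ADAM17, had 14.2, 21 and 32.6 FPKM in vehicle and 34.1, 55.3 and 140 FPKM in R replicates 1, 2 and 3. Its groups were apart too, but it was short of the threshold (log2 change 1.54, limma adjusted p = 0.121). In this list each R library lay below each vehicle library in 2 genes (Rhbdf2 and Adam17) and above in 2 (Rhbdf1 and Timp3). Over all tested genes these shares were 15.5% and 13.9%.

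**Figure D4:**
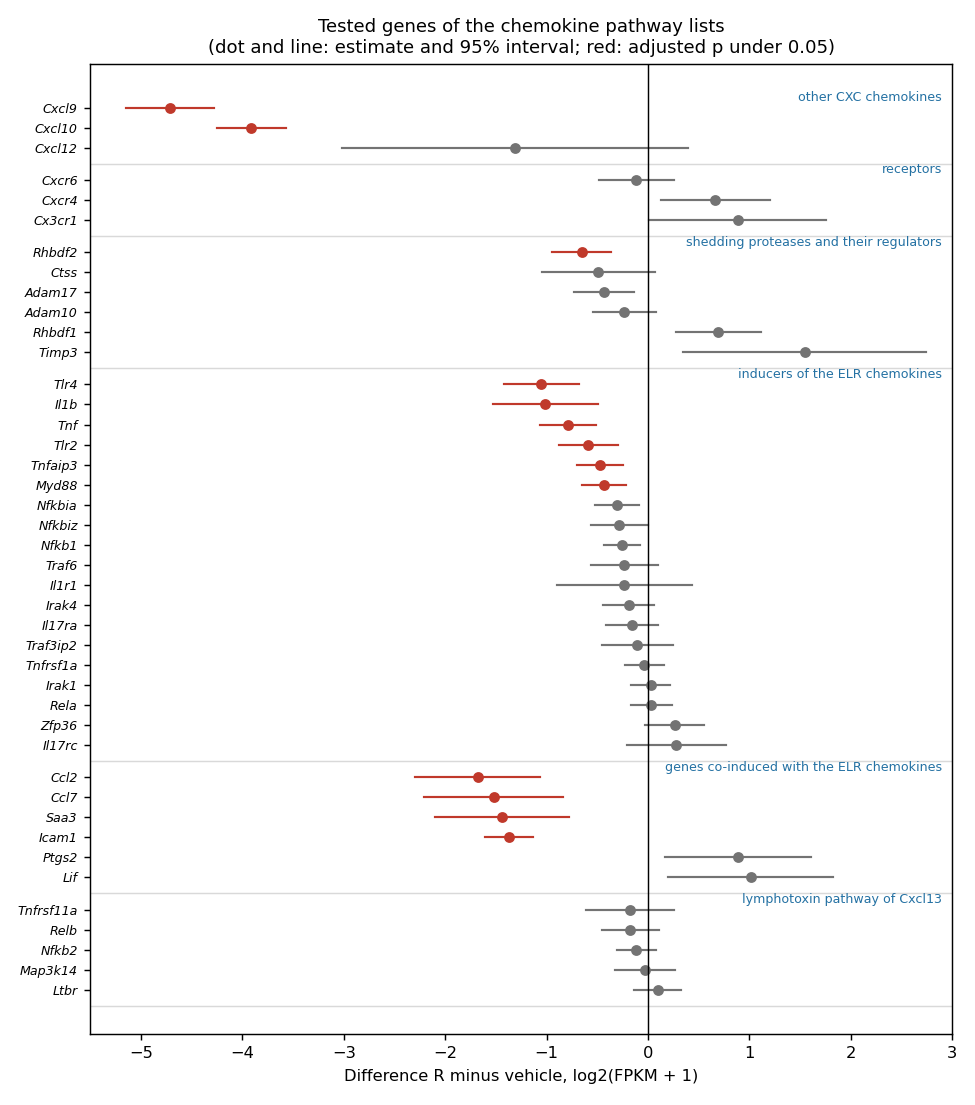
Difference in log2(FPKM + 1), R minus vehicle, with 95% intervals for the 42 tested genes of the 6 pathway lists. The 13 called genes all lie below 0, from Cxcl9 at -4.72 to Myd88 at -0.43. Over all tested genes 4.43% fell and 2.39% rose.

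The inducers of the ELR chemokines were listed with their signalling genes and negative regulators (Nfkbia, Tnfaip3 and Zfp36). Counts and the median of this list thus mix genes that promote induction with genes that limit it. The cytokines Tnf and Il1b, the receptors Tlr2 and Tlr4, Myd88 and the negative regulator Tnfaip3 fell. Of 19 tested in a list of 22, 6 fell and 0 rose, beside 4.43% and 2.39% of all tested genes. Their median log2 change was -0.24, beside -0.0037 over all tested genes. Tnf had 44, 45 and 42.7 FPKM in vehicle and 29.1, 21.4 and 25.1 FPKM in R replicates 1, 2 and 3, well apart (log2 change -0.79, limma adjusted p = 0.0108). Tlr4, the lipopolysaccharide receptor, went from 17.3 ± 3.34 to 7.78 ± 1.19 FPKM (SD, n = 3; adjusted p = 0.0112). Both calls held whichever library was left out. Il1b fell from 7.17 ± 2.78 to 2.92 ± 0.351 FPKM, and Tlr2, the bacterial lipoprotein receptor, had a log2 change of -0.59. The adaptor Myd88 and the NF-kappaB feedback inhibitor Tnfaip3 had log2 changes of -0.43 and -0.47. Leaving out a library ended these 4 calls. Il1b lost its call without any R library or without vehicle replicate 2 (adjusted p up to 0.115), and Tlr2 without R replicate 2 or 3 or vehicle replicate 1 or 2 (up to 0.129). Myd88 lost its call when any library but R replicate 1 was left out (up to 0.146), and Tnfaip3 when any but vehicle replicate 3 was (up to 0.141). Rela, the transactivating NF-kappaB subunit, stood at 56.2 ± 4.57 FPKM in R against 54.8 ± 0.339 FPKM in vehicle (SD, n = 3). It did not pass (log2 change 0.03, adjusted p = 0.873), and its sign turned without R replicate 1 (-0.03). The TNF receptor Tnfrsf1a had a log2 change of -0.04, the inhibitor Nfkbia -0.31 and Zfp36, which promotes decay of cytokine and chemokine mRNA, 0.26, and none passed. Il17a was at 0 in all 6 libraries.

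Of the genes commonly induced together with the ELR chemokines, Icam1, Ccl2, Ccl7 and Saa3 fell, while Ptgs2 and Lif, numerically higher, did not pass. Of 6 tested in a list of 11, 4 fell and 0 rose, beside 4.43% and 2.39% of all tested genes. Their median log2 change was -1.41, beside -0.0037 over all tested genes. The adhesion molecule Icam1 had 31.4, 26.4 and 25.3 FPKM in vehicle and 10.3, 10.3 and 9.51 FPKM in R replicates 1, 2 and 3 (log2 change -1.37, limma adjusted p = 0.00069). The monocyte chemokines Ccl2 and Ccl7, which lie side by side, had log2 changes of -1.68 and -1.52, and the acute-phase gene Saa3 one of -1.44. The calls of Icam1 and Ccl2 held whichever library was left out, although that of Ccl2 was lost when all listed genes were fitted (adjusted p = 0.0581). The call of Ccl7 ended when any library but vehicle replicate 2 was left out (adjusted p up to 0.0913), and that of Saa3 without any R library or vehicle replicate 2 (up to 0.0814). Ptgs2, the inducible cyclooxygenase, had 13.2, 9.52 and 24.4 FPKM in vehicle and 26.9, 24 and 33.5 FPKM in R, which overlapped (log2 change 0.89, adjusted p = 0.133). Lif, a cytokine of the interleukin 6 family, had 2.37, 1.95 and 6.92 FPKM in vehicle and 7.64, 8.44 and 6.89 FPKM in R, which overlapped too (adjusted p = 0.132). Vehicle replicate 3 was the high control in both genes, and without it both passed as higher in R (adjusted p = 0.0156 for Ptgs2 and 0.00224 for Lif).

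In the lymphotoxin pathway, which drives Cxcl13 in lymphoid stroma, 0 of the 5 tested genes in a list of 11 fell or rose by limma's adjusted p. Over all tested genes 6.82% passed. The receptor Ltbr stood at 62.9 ± 6.77 FPKM in R against 58.6 ± 2.2 FPKM in vehicle, with a log2 change of 0.09 (SD, n = 3, adjusted p = 0.623). The noncanonical NF-kappaB subunits Nfkb2 and Relb had log2 changes of -0.12 and -0.175. Tnfrsf11a, the receptor RANK, stood at -0.18, and its sign turned without R replicate 2 (0.02). The ligands Lta and Ltb were below 1 FPKM in every library, and Ccl19 was at 0 in all of them. In 3 of the 11 listed genes each R library lay below each vehicle library, beside 15.5% of all tested genes. These were Nfkb2 and, under the filter, Tnfsf14 (0.78 to 1.14 FPKM in vehicle, 0.18 to 0.473 in R) and Tnfsf13b (0.422 to 0.648 in vehicle, 0.138 to 0.301 in R).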

How the data were processed

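The deposited values are FPKM that the authors computed, per the file headers. The submitters' processing notes name edgeR 3.18.1 and the build GRCm38, also called mm10. Sources used here give no aligner, counter, annotation, strandedness or read length. Symbols, positions and exon lengths came from GENCODE M21 and matched 49281 of 49328 listed identifiers; the last line of the table broke off and was left out. Depth was estimated from low FPKM, which are whole multiples of 1 read: within 0.02 reads this held for 98.3% to 98.4% of values under 20.5 reads. Read numbers depend on those exon lengths.

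Genes with 1 FPKM or more in 3 or more libraries entered limma 3.58.1 (R 4.3.3) as log2(FPKM + 1), with 2 groups, a trend in the prior variance and Benjamini-Hochberg adjustment. This scale understates changes of low genes. Members under the filter got exact permutation tests. Reads were simulated for 11574 genes of this comparison, all with an equal spread (dispersion 0.02). From these limma recovered 36% of the genes changed 1.5-fold, 90% of those changed 2-fold and 98% of those changed 4-fold or 8-fold. Of 181 calls 20 were false (11%). In the real libraries the tested members differed in spread, with an SE from 0.13 (Cxcl1) to 0.59 (Cxcl5). The recovered shares thus cannot be read as the power for each member, and Cxcl5 was not called.

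The members, pathway and marker lists were chosen with earlier results of these data known. Text names every member, all called list genes and up to 4 others per list by mean FPKM, and the 3 nearest profiles among genes of at least 5 FPKM. Levels of Lyz2, Col1a1, Pdgfrb, Lepr, Csf3r, S100a8, C1qa, Cd68, Itga2b, Gp9, Treml1, Cd4, Trbc2 and Rhbdf1, and of genes under the filter, were named beyond this rule.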

Additional observations from a re-analysis of the deposited data

How the results depend on the processing

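Results were recomputed under up to 14 alternatives: 2 pseudocounts, no filter or a stricter one (5 FPKM), 2 scalings, no variance trend, a replicate block and each library left out. The change of Cxcl1 kept its call in all of them. Cxcl5 passed with a pseudocount of 0.1 (log2 change -4.86), with the replicate block (-2.5, adjusted p = 0.0437) and without vehicle replicate 2, and its change ran from -3.26 to -1.997 over the libraries left out. That of Cxcl16 ran from -0.87 to -0.36. The untested Cxcl13 moved from -0.11 to -0.82 with a pseudocount of 0.1, to -0.022 with 5 and to -0.076 with equal medians; Ppbp changed sign over the libraries left out (-0.29 to 0.12). The stricter filter gave no value for Cxcl5, Cx3cl1, Cxcr6, Cxcl13 or Ppbp, nor quantile normalization for Cxcl13 or Ppbp. The number of members that fell was 2, not 1, with a pseudocount of 0.1 and with the replicate block, and 1 to 2 over the libraries left out; 0 rose in any. Over all genes 240 fell and 53 rose without the filter, and with a library left out 272 to 527 fell and 63 to 352 rose. Of the pathway genes 6 fell without the filter, 6 to 11 with a library left out, and 2 rose with the replicate block and 0 to 2 with a library left out. With a library left out Rela ran from -0.033 (without R replicate 1) to 0.076 and Tnfrsf11a from -0.305 to 0.017 (without R replicate 2), and both changed sign. The cause of these changes was not tested. Deviations of same-numbered libraries over all tested genes had correlations of 0.142, -0.012 and -0.031 for numbers 1, 2 and 3. The first was the highest of any R and vehicle pair, while R replicates 2 and 3 correlated best with other numbers. The labels do not say that the numbers pair the samples, so whether the replicate block is a true pairing cannot be told. With it the SE was smaller for every tested member but Cxcl1, such as Cxcl16 (0.266 to 0.168), and larger for Cxcl1 (0.126 to 0.141). Under the block 457 genes fell and 299 rose. Depth limits Cxcl13 and Ppbp, and Cxcl5 in the R libraries.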
